A study of Homo sapiens with 9 samples.

Results

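Serous ovarian carcinoma is recognised by a small set of genes, and 10 of them were followed here in OVCAR3 cells, an epithelial line derived from high-grade serous ovarian carcinoma. The genes are *MUC16*, *MSLN*, *WFDC2*, *FOLR1*, *MUC1*, *PAX8*, *WT1*, *SOX17*, *EMX2* and *ESR1*. They were listed as markers of serous carcinoma and of Mullerian epithelium, the lining of the embryonic duct that forms the fallopian tube and uterus. All 10 were found among the 60660 genes of the count matrix, and 9 passed the filter on low counts that left 17794 genes for testing. *ESR1* did not pass it. Gene positions are those of GENCODE 44 on GRCh38.

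The libraries were polyadenylated RNA sequenced from 3 groups of 3 biological replicates, each pooled from 3 technical replicates. CTCFL-OE cells had been transiently transfected with 2 µg of the plasmid pCpGfree-vitroHBORIS, which carries the open reading frame of *CTCFL* (BORIS), the testis-specific paralog of the DNA-binding protein CTCF, and were collected after 48 h. Control cells received the matching LacZ plasmid according to the study's methods, while their label gives no *CTCFL* treatment. CTCFL-KD cells had *CTCFL* knocked down, and their RNA came from knockdown experiments done earlier. The knockdown and the separate experiment therefore cannot be told apart in any comparison with CTCFL-KD. All 3 groups share 1 cell line. In bulk RNA, fewer cells that express a gene and less RNA per cell cannot be told apart.

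The markers fall into molecules of the cell surface or the secretions and transcription factors. MUC16 is the very large membrane mucin whose shed part is measured in blood as CA125, and mesothelin (MSLN) is the surface protein it binds. WFDC2 is the secreted protein measured as HE4, FOLR1 is the folate receptor alpha that serves as an antibody target, and MUC1 is a membrane mucin of glandular epithelia. PAX8, WT1, SOX17 and EMX2 are transcription factors of the developing genital tract and kidney that stay on in serous carcinoma, and ESR1 is the oestrogen receptor alpha.

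Counted reads ranged from 14332622 to 24490080 per library. *CTCFL* itself had 6, 9 and 10 counts in Control, 36, 34 and 72 in CTCFL-OE, against 0, 1 and 0 in CTCFL-KD. Mitochondrially encoded genes took 6.16% to 6.52% of the counts in Control, 7.40% to 14.9% in CTCFL-OE and 7.80% to 11.8% in CTCFL-KD. The 6 epithelial markers (*EPCAM*, *CDH1*, *KRT7*, *KRT8*, *KRT18*, *KRT19*) were above 1 CPM in each group, with a summed level of 4978 to 5026 CPM in Control, 3923 to 4608 in CTCFL-OE, against 7079 to 14140 in CTCFL-KD. Of these 6, *KRT8*, *KRT18* and *EPCAM* were higher in CTCFL-KD than in Control (fold over 2, adjusted p below 0.05, edgeR), while *KRT7* was 2.17-fold lower (adjusted p = 0.0164). Summed markers of leukocytes (6 genes) reached 0.551 to 0.971 CPM in Control, 0.867 to 1.84 in CTCFL-OE and 2.90 to 4.69 in CTCFL-KD, with *CD3E* and *CD68* at 0 in Control. Those of fibroblasts (10 genes) summed to 28.0 to 33.8, 24.99 to 44.2 and 37.8 to 43.0 CPM in the same order. *COL1A1*, the most abundant of them, was at 32.0, 30.9 and 26.4 CPM in Control and 26.1, 22.4 and 21.3 in CTCFL-KD (adjusted p = 0.221). *COL1A2*, another collagen chain, had 0 counts in every Control library against 156, 239 and 247 in CTCFL-KD, and *COL3A1* had 0 in Control and CTCFL-OE against 8, 9 and 8 in CTCFL-KD. Those of mesothelium (8 genes), whose cells also make MSLN, MUC16 and WT1, reached 40.3 to 41.4, 38.2 to 51.4 and 67.7 to 117 CPM, with 4, 5 and 5 of the 8 genes above 1 CPM on average and *ITLN1* at 0 in Control and CTCFL-OE. Against Control, *UPK3B* was 8.34-fold higher (adjusted p = 4.01e-05), *CALB2* 9.29-fold higher (adjusted p = 0.00159) and *KRT5* 3.78-fold lower (adjusted p = 1.70e-05) in CTCFL-KD, and *CALB2* was 6.47-fold higher in CTCFL-OE (adjusted p = 0.0555). Granulosa markers (5 genes, *FSHR* at 0 in Control) summed to 7.45 to 10.1, 9.58 to 14.8 and 16.3 to 32.5 CPM, with *FOXL2* 10.1-fold higher in CTCFL-KD than in Control (adjusted p = 2.92e-05). Endothelial markers (5 genes) summed to 8.36 to 9.40, 11.3 to 12.5 and 11.5 to 20.7 CPM, with *KDR* 6.63-fold higher (adjusted p = 0.000343) and *PECAM1* 5.88-fold lower (adjusted p = 0.000511). Markers of other carcinomas (6 genes) summed to 3.56 to 4.197, 4.42 to 4.91 and 9.97 to 12.4 CPM, with the lung and thyroid factor *NKX2-1* 3.22-fold higher (adjusted p = 0.0001). In all 6 lists of other cell types the CTCFL-KD sums lay above the Control sums. Their part in the results was not tested. CTCFL-KD replicate 1 stood apart from replicates 2 and 3: across 14453 genes its log2 level relative to theirs fell with exonic length (Spearman's rho -0.50). CTCFL-OE replicate 1 also differed from CTCFL-OE replicates 2 and 3. Its chi-square per degree of freedom against them was 50.4 and 104, with 25.1 between replicates 2 and 3 and at most 7.5 between Control libraries. It had 7.40% mitochondrial counts, against 12.4% and 14.9%.

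The promoters of 3 surface or secreted markers are shown because *MUC16* and *WFDC2* were higher in CTCFL-KD and *MUC1* differed between CTCFL-KD and CTCFL-OE. They are RefSeq sequences (GRCh38.p14), each 250 bases before to 50 after an annotated start, written along the gene's own strand. Capitals mark a CTCF-type core, searched on both strands in 4 forms, which were the common form AGGGGGC, the form AGGTGGC, the form AGAGGGC and the form AGATGGC.
MUC16 (chr19:9010360-9010659, minus strand): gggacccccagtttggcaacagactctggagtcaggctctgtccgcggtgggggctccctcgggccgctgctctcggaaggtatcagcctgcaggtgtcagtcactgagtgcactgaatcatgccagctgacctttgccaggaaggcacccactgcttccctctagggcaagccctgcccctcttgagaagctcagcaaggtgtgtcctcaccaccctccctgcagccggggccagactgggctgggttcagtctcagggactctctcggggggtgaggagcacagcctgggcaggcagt
WFDC2 (chr20:45469503-45469802, plus strand): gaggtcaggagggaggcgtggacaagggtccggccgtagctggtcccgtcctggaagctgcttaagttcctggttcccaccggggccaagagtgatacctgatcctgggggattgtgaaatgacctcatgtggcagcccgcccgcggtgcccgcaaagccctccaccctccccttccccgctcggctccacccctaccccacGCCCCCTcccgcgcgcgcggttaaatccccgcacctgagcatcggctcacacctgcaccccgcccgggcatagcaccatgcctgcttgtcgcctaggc
MUC1 (chr1:155192866-155193165, minus strand): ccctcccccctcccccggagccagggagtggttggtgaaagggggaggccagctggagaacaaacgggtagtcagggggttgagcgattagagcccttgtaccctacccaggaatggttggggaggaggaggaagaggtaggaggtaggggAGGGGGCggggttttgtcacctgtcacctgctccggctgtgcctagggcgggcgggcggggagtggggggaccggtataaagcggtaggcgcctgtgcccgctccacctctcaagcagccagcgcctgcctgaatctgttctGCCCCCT
At least 1 of the 4 cores was present in 30.5% of all 35116 RefSeq promoters of this length, and AGGGGGC alone in 14.4%. The *MUC16* window held none, the *WFDC2* window held 1 starting 48 bases before the transcription start, and the *MUC1* window held 2, the first starting 99 bases before it. One of the 4 GC boxes (GGGCGG, in 45.0% of all promoters) in the *MUC1* window overlapped a core. CpG sites numbered 7 in the *MUC16* window, 22 in *WFDC2* and 13 in *MUC1*, against a median of 14 over all promoters. A match of letters is a description and no measurement of binding. Promoters were also matched for *PAX8*, *WT1*, *EMX2* and *ESR1*, 7 of the 10 markers in all, and not for *MSLN*, *FOLR1* and *SOX17*. These 7 markers had 17 windows, of which 5 held a core. Not shown are a further *MUC16* window (chr19:9065702-9066001), which held no core, and a further *MUC1* window, which held 2.

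To see how the markers rank in OVCAR3 cells, levels were compared per length, as counts divided by exonic length and scaled to a common sum (TPM). In Control, *WFDC2* was highest at 494 ± 30.9 TPM (SD, n = 3), followed by *PAX8* at 237 ± 4.70, *MSLN* at 151 ± 3.01, *SOX17* at 104 ± 7.44, *EMX2* at 84.7 ± 2.66 and *MUC1* at 72.7 ± 4.42 TPM. *WT1* (27.1 ± 0.823 TPM) and *FOLR1* (27.0 ± 0.707 TPM) overlapped between libraries, and *MUC16* followed at 15.3 ± 3.93 TPM. The other neighbours in this order did not overlap in Control. *ESR1* was last at 0.0682 ± 0.00917 TPM. Among 32401 genes ranked in Control by TPM, *WFDC2* stood at rank 211, *PAX8* at 483 and *MUC16* at 6709. In CTCFL-KD *WFDC2* stayed first and *ESR1* last, and the order between them changed. *MSLN* (344 ± 78.1 TPM) stood above *PAX8* (252 ± 40.7 TPM), although their libraries overlapped. *FOLR1* (126 ± 38.1 TPM) and *MUC16* (90.6 ± 48.1 TPM) stood above *EMX2* (90.3 ± 20.8 TPM), *SOX17* (86.3 ± 7.59 TPM) and *MUC1* (77.0 ± 8.44 TPM), although each of these neighbours overlapped the next. *WFDC2* stood at 849 ± 312 TPM, and *WT1* stood above *ESR1* alone at 14.1 ± 6.03 TPM.

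The question of the comparisons was which genes change when *CTCFL* is raised or lowered. A gene was called differentially expressed (a DEG) when its fold change exceeded 2 and its adjusted p was below 0.05, or below 0.1 for CTCFL-OE against Control. All adjusted p-values come from the quasi-likelihood test of edgeR, Benjamini-Hochberg adjusted over the 17794 genes. Levels are given in CPM, counts relative to the scaled library size, for replicates 1, 2 and 3 in turn. Both treated groups share the Control libraries, so their fold changes are not independent.

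In CTCFL-KD, 4 of the 9 markers tested were DEGs, all higher: *MUC16*, *FOLR1*, *MSLN* and *WFDC2*. Among all genes tested, 23.2% were DEGs in CTCFL-KD. By the adjusted p alone, 5 markers were higher (*EMX2* added) and *WT1* was lower, against 38.2% of all genes. All 3 CTCFL-KD libraries lay above all 3 Control libraries for 7 markers and below them for 1, so that 8 of 9 did not overlap, against 56.3% of all genes. The median log2 fold change was 0.51 over the 9 markers and 0.08 over all genes. In CTCFL-OE, no marker was a DEG, against 2.07% of all genes, or passed the adjusted p alone, against 3.15%. At an unadjusted p under 0.05, 3 markers (*WT1*, *FOLR1* and *MUC1*) passed edgeR's test in CTCFL-OE, and DESeq2 on all 9 libraries called 1 DEG, *FOLR1*, as did edgeR without CTCFL-OE replicate 1 or without CTCFL-KD replicate 1. CTCFL-KD replicate 1 lies outside this comparison but enters the shared fit. Without it, *FOLR1*, *WT1*, *MUC1* and *MSLN* passed the adjusted p in CTCFL-OE. Shares of all genes at an unadjusted p, by DESeq2 or in fits without a library are not given here. The libraries of CTCFL-OE and Control did not overlap for 4 of 9 markers, against 37.1% of all genes. CTCFL-KD compared directly with CTCFL-OE gave 4 DEGs, all higher in CTCFL-KD (*MUC16*, *FOLR1*, *MUC1* and *MSLN*), against 17.0% of all genes, and the same number by the adjusted p alone, against 26.8%. The number of DEGs was 1 (*MUC16*) without CTCFL-OE replicate 1 or CTCFL-KD replicate 1, and 2 without CTCFL-OE replicate 2. With the replicate number as a block it was 3, and *MSLN* was no longer among them. For 7 markers all 3 CTCFL-KD libraries lay above all 3 CTCFL-OE libraries, against 39.8% of all genes without overlap. The DEGs of CTCFL-KD were 4 of the 5 surface or secreted markers and none of the 4 transcription factors tested.

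**Figure D1:**
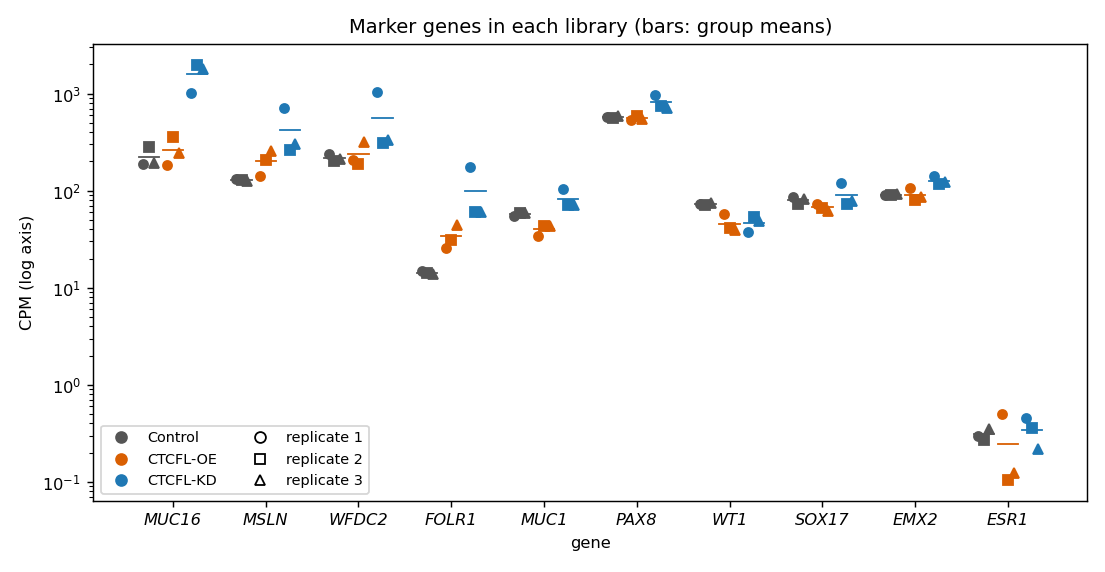
Level of each of the 10 markers in CPM (log axis) in each library, with circles, squares and triangles for replicates 1, 2 and 3 and a bar at each group mean. *MUC16* and *FOLR1* lie higher in all 3 CTCFL-KD libraries than in any Control library, *WT1* lies lower in CTCFL-OE and CTCFL-KD than in Control, and *ESR1* lies below 1 CPM in all 9 libraries.

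*MUC16* (ENSG00000181143.15, chr19:8848844-9010390, minus strand) had 3762, 7281 and 3851 counts in Control, 4038, 6878 and 4012 in CTCFL-OE, against 11171, 33375 and 32574 in CTCFL-KD. These were 188, 283 and 195 CPM in Control, 184, 359 and 247 in CTCFL-OE, against 1008, 1984 and 1784 in CTCFL-KD. The CTCFL-KD libraries lay far above the other 6, while CTCFL-OE and Control overlapped. The transcript of the CA125 mucin rose 7.17-fold in CTCFL-KD (log2 fold change 2.84 ± 0.34 SE, adjusted p = 0.000149), and against CTCFL-OE it was 6.05-fold higher (log2 fold change 2.60 ± 0.34 SE, adjusted p = 0.000342). In CTCFL-OE the log2 fold change was 0.25 ± 0.32 SE (adjusted p = 0.717, 95% interval -0.38 to 0.87). Without CTCFL-KD replicate 1 the log2 fold change in CTCFL-KD was 3.09, and with the length and GC trend of each library removed it was 2.61, the highest and the lowest of 21 alternative settings, in all of which *MUC16* was a DEG.

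*MSLN* (ENSG00000102854.16, chr16:760734-768865, plus strand), which encodes the binding partner of MUC16, had 132, 129 and 126 CPM in Control, 142, 209 and 258 in CTCFL-OE, against 717, 261 and 303 in CTCFL-KD. Each treated library lay above each Control library, and CTCFL-KD replicate 1 was more than double the other CTCFL-KD libraries. *MSLN* rose 3.30-fold in CTCFL-KD (log2 fold change 1.72 ± 0.37 SE, adjusted p = 0.00421) and was a DEG in all 21 alternative settings, with a log2 fold change of 1.13 without CTCFL-KD replicate 1. In CTCFL-OE the log2 fold change was 0.65 ± 0.36 SE (adjusted p = 0.367, and 0.0438 without CTCFL-KD replicate 1). Against CTCFL-OE, *MSLN* was higher in CTCFL-KD by a log2 fold change of 1.07 ± 0.36 SE (adjusted p = 0.0489). Against CTCFL-OE *MSLN* was a DEG in only 5 of 21 settings, and the adjusted p alone was lost in 13, among them the fits without any 1 of the Control or CTCFL-OE libraries (adjusted p = 0.0553 to 0.154), and without CTCFL-KD replicate 1 the log2 fold change was 0.47 (adjusted p = 0.0939).

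*FOLR1* (ENSG00000110195.14, chr11:72189558-72196323, plus strand) had 298, 362 and 272 counts in Control, 568, 595 and 726 in CTCFL-OE, against 1955, 1013 and 1095 in CTCFL-KD. In CPM, Control stood at 14.9, 14.1 and 13.8, CTCFL-OE at 25.9, 31.1 and 44.6, and CTCFL-KD at 176, 60.2 and 60.0. The 3 groups did not overlap, in the order Control, CTCFL-OE and CTCFL-KD. The folate receptor transcript rose 6.92-fold in CTCFL-KD (log2 fold change 2.79 ± 0.41 SE, adjusted p = 0.000497), and the log2 fold change was 2.08 without CTCFL-KD replicate 1. In CTCFL-OE it was 1.25 ± 0.39 SE, and the adjusted p of 0.147 did not pass the threshold. *FOLR1* was a DEG in CTCFL-OE in 8 of 21 settings, among them edgeR on the 2 groups compared (adjusted p = 0.0133), the fit without CTCFL-OE replicate 1 (adjusted p = 0.0923) and the fit without CTCFL-KD replicate 1 (adjusted p = 0.00354). CTCFL-KD stood above CTCFL-OE by a log2 fold change of 1.54 ± 0.39 SE (adjusted p = 0.0147), which was 0.83 without CTCFL-KD replicate 1 (adjusted p = 0.00631) and then below the fold threshold. Without CTCFL-OE replicate 1 or replicate 2 the adjusted p of this difference was 0.0661 or 0.0611.

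*WFDC2* (ENSG00000101443.18, chr20:45469753-45481532, plus strand) had 239, 204 and 211 CPM in Control, 207, 190 and 317 in CTCFL-OE, against 1043, 312 and 332 in CTCFL-KD. CTCFL-OE overlapped both other groups, and CTCFL-KD replicate 1 lay more than 3-fold above replicates 2 and 3. The HE4 transcript rose 2.58-fold in CTCFL-KD (log2 fold change 1.37 ± 0.42 SE, adjusted p = 0.0266). Without CTCFL-KD replicate 1 the log2 fold change was 0.57 (adjusted p = 0.0373), and *WFDC2* was no longer a DEG. Leaving out any 1 Control library ended the call as well (adjusted p = 0.0641 to 0.0865). In CTCFL-OE the log2 fold change was 0.13 ± 0.42 SE (adjusted p = 0.898, 95% interval -0.69 to 0.95), and CTCFL-KD against CTCFL-OE gave 1.24 ± 0.42 SE (adjusted p = 0.0513). The last was a DEG in 8 of 21 settings and passed by the adjusted p alone in 9. This adjusted p was 0.0234 or 0.0260 without CTCFL-KD replicate 2 or 3, and 0.109 without replicate 1.

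*MUC1* (ENSG00000185499.16, chr1:155185824-155192916, minus strand) had 54.9, 58.7 and 59.2 CPM in Control, 34.2, 42.8 and 43.1 in CTCFL-OE, against 105, 70.6 and 70.8 in CTCFL-KD. The CTCFL-OE libraries all lay below Control and the CTCFL-KD libraries all above it. Neither difference from Control passed the test, with log2 fold changes of -0.53 ± 0.20 SE in CTCFL-OE (adjusted p = 0.202) and 0.51 ± 0.20 SE in CTCFL-KD (adjusted p = 0.0598). The first passed in 5 of 21 settings, among them the fit without CTCFL-KD replicate 1 (adjusted p = 0.0171), and the second in 2, among them the fit without CTCFL-KD replicate 2 (adjusted p = 0.0484). The direct comparison passed with all 9 libraries, and *MUC1* was 2.05-fold higher in CTCFL-KD than in CTCFL-OE (log2 fold change 1.03 ± 0.20 SE, adjusted p = 0.00328). This adjusted p stayed under 0.05 in all 21 settings, while the fold stayed over the threshold in 13. The log2 fold change was 0.82 without CTCFL-KD replicate 1.

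**Figure D2:**
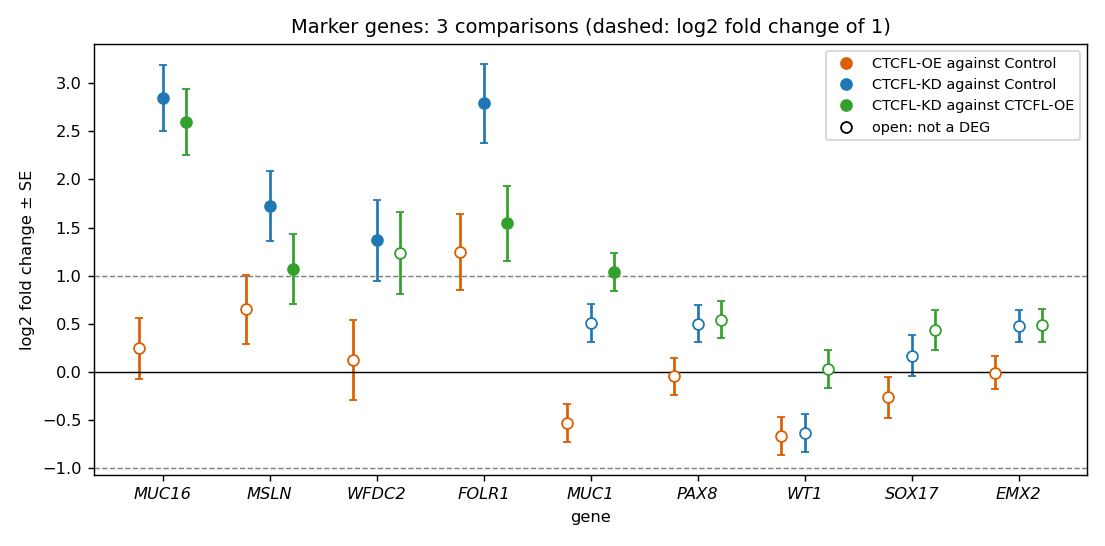
Log2 fold change ± SE of the 9 markers tested in each of the 3 comparisons, with filled points for DEGs and dashed lines at a log2 fold change of 1 and -1. In CTCFL-KD against Control, *MUC16* (2.84) and *FOLR1* (2.79) are highest and *WT1* (-0.63) is lowest, and no point of CTCFL-OE against Control is filled.

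*WT1* (ENSG00000184937.16, chr11:32387775-32435564, minus strand), the zinc-finger factor that separates serous from most other ovarian carcinomas in histology, had 72.3, 71.3 and 74.7 CPM in Control, 56.9, 41.0 and 39.7 in CTCFL-OE, against 37.7, 54.0 and 49.2 in CTCFL-KD. All 6 treated libraries lay below all 3 Control libraries. In CTCFL-KD the log2 fold change was -0.63 ± 0.20 SE (adjusted p = 0.0272), a level 1.55-fold lower, which passed the adjusted p and not the fold threshold. Without any 1 Control library the adjusted p rose to 0.0695 to 0.0836. In CTCFL-OE the log2 fold change was -0.67 ± 0.20 SE (adjusted p = 0.129), and the adjusted p passed in 8 of 21 settings, among them those without CTCFL-OE replicate 1 (0.0362) or CTCFL-KD replicate 1 (0.0148). CTCFL-KD and CTCFL-OE overlapped, with a log2 fold change of 0.04 ± 0.20 SE between them (adjusted p = 0.910, 95% interval -0.35 to 0.42).

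*PAX8* (ENSG00000125618.17, chr2:113215997-113278921, minus strand), the paired-box factor used to trace a tumour to Mullerian epithelium, had 579, 564 and 585 CPM in Control, 541, 582 and 551 in CTCFL-OE, against 978, 751 and 713 in CTCFL-KD. Control and CTCFL-OE overlapped, and all CTCFL-KD libraries were higher. The log2 fold change in CTCFL-KD was 0.50 ± 0.19 SE and its adjusted p of 0.0592 did not pass, although it passed in 3 of 21 settings, among them the fit without CTCFL-KD replicate 1 (0.35, adjusted p = 0.0293). In CTCFL-OE the log2 fold change was -0.05 ± 0.19 SE (adjusted p = 0.920, 95% interval -0.42 to 0.33), and against CTCFL-OE the CTCFL-KD group gave 0.55 ± 0.19 SE (adjusted p = 0.0557, and 0.0226 without CTCFL-KD replicate 1).

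*EMX2* (ENSG00000170370.12, chr10:117542445-117549546, plus strand), a homeobox factor needed for the genital tract and kidney, had 90.2, 90.3 and 93.0 CPM in Control, 106, 80.7 and 85.3 in CTCFL-OE, against 141, 118 and 122 in CTCFL-KD. Only the CTCFL-KD libraries were clear of Control. The log2 fold change in CTCFL-KD was 0.48 ± 0.17 SE (adjusted p = 0.0447), under the fold threshold. With the replicate number as a block it was 0.47 (adjusted p = 0.0558), and with the length and GC trend removed it was 0.24 (adjusted p = 0.248). The adjusted p was lost in 12 of 21 settings, among them those without any 1 Control library (0.131 to 0.146), without CTCFL-OE replicate 2 or 3 (0.0656 and 0.0514) and without CTCFL-KD replicate 2 or 3 (0.0573 and 0.0744). In CTCFL-OE the log2 fold change was -0.01 ± 0.17 SE (adjusted p = 0.990, 95% interval -0.34 to 0.32). CTCFL-KD against CTCFL-OE gave 0.48 ± 0.17 SE (adjusted p = 0.0545), which passed without CTCFL-OE replicate 1 (0.0232) or CTCFL-KD replicate 1 (0.0269).

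*SOX17* (ENSG00000164736.6, on chromosome 8), an endoderm and Mullerian factor that acts with PAX8 in serous carcinoma, had 86.9, 72.5 and 82.4 CPM in Control, 73.0, 66.7 and 61.7 in CTCFL-OE, against 121, 73.1 and 78.2 in CTCFL-KD. All groups overlapped with Control. The log2 fold change was -0.26 ± 0.21 SE in CTCFL-OE (adjusted p = 0.534, 95% interval -0.67 to 0.15) and 0.17 ± 0.21 SE in CTCFL-KD (adjusted p = 0.542, 95% interval -0.24 to 0.58). The second value was -0.09 without CTCFL-KD replicate 1 and -0.17 with the length and GC trend removed. CTCFL-KD lay above CTCFL-OE in all libraries, with a log2 fold change of 0.43 ± 0.21 SE (adjusted p = 0.146).

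*ESR1* (ENSG00000091831.24, chr6:151656691-152129619, plus strand) had 6, 7 and 7 counts in Control, 11, 2 and 2 in CTCFL-OE, against 5, 6 and 4 in CTCFL-KD. The groups overlapped, and a difference was not detectable at this depth, where a count of 0 would still allow 0.117 to 0.271 CPM (3 counts). No fold change is given.

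CTCFL-KD replicate 1 differed from replicates 2 and 3 along exonic length. In this library *WFDC2*, with 1335 exonic bases, stood at 3.24 times the mean CPM of replicates 2 and 3, *FOLR1* (1601 bases) at 2.93 times and *MSLN* (2588 bases) at 2.55 times. *MUC16*, with 44165 exonic bases the longest marker, stood at 0.535 times. Between replicates 2 and 3 the ratios of the 9 markers ranged from 0.861 for *MSLN* to 1.11 for *MUC16*. Over the 9 markers Spearman's rho of this ratio with exonic length was -0.93, and over 14453 genes, which share the same libraries, it was -0.50. The median ratio of all genes fell from 1.85 in the 1446 shortest genes to 0.641 in the 1445 longest. *WFDC2*, *FOLR1* and *MSLN* thus lay above the median of every length bin. *SOX17* (2346 bases), *MUC1* (2401), *EMX2* (3261), *PAX8* (7371) and *WT1* (8133) stood at 1.60, 1.48, 1.17, 1.34 and 0.731 times. The high values of the short markers and the low value of *MUC16* in 1 library went in the direction of the length trend. The cause was not tested.

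**Figure D3:**
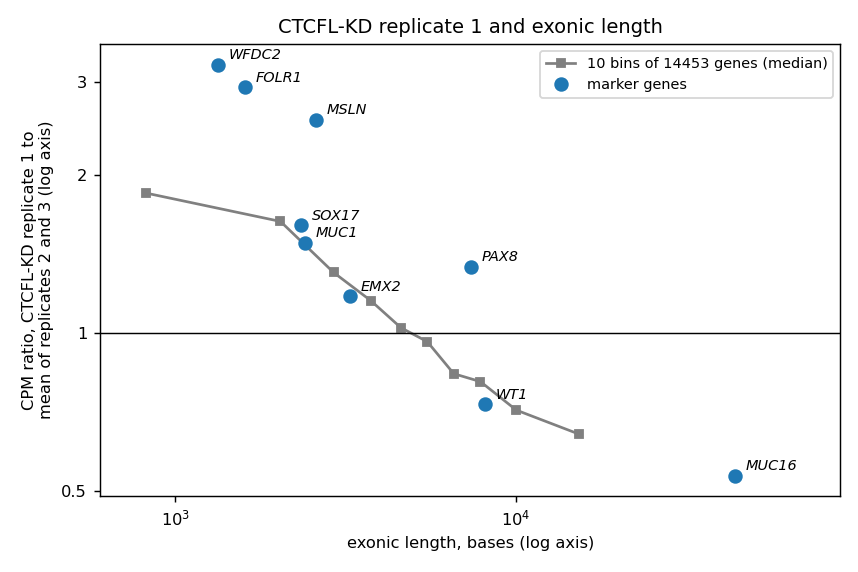
Ratio of the CPM in CTCFL-KD replicate 1 to the mean of replicates 2 and 3 (log axis) against exonic length in bases (log axis), for the 9 markers tested (points) and as medians of 10 bins of 14453 genes by length (grey line). *WFDC2*, *FOLR1* and *MSLN* lie above the grey line at ratios of 3.24, 2.93 and 2.55, and *MUC16* has the lowest ratio, 0.535.

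**Figure D4:**
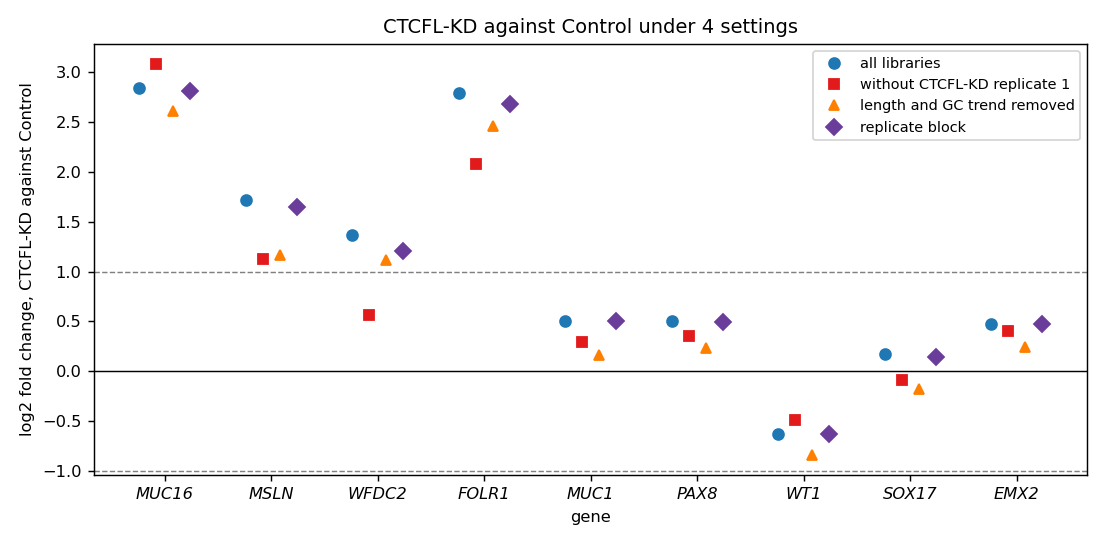
Log2 fold change of CTCFL-KD against Control for the 9 markers with all libraries, without CTCFL-KD replicate 1, with the length and GC trend of each library removed, and with the replicate number as a block. Dashed lines mark log2 fold changes of 1 and -1. *MUC16*, *FOLR1* and *MSLN* stay over 1 in all 4 fits, *WFDC2* drops to 0.57 without CTCFL-KD replicate 1, and *SOX17* changes sign.

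Of 28 other serous carcinoma markers, 27 were tested, and in CTCFL-KD 12 were DEGs higher and 4 lower, against the 23.2% of all genes given above. Without CTCFL-KD replicate 1 the DEGs were 14 in place of 16. *CLDN3*, a tight junction protein, had 104, 92.4 and 99.9 CPM in Control and 973, 434 and 455 in CTCFL-KD (log2 fold change 2.65 ± 0.35 SE, adjusted p = 0.000288). *VTCN1*, the B7-H4 immune checkpoint ligand, had 37.5, 47.7 and 41.8 CPM in Control, 122, 69.3 and 106 in CTCFL-OE, against 220, 206 and 200 in CTCFL-KD, and was a DEG in both (log2 fold changes 1.22 ± 0.22 and 2.30 ± 0.22 SE). The 3 groups of *VTCN1* did not overlap, in the order found for *FOLR1*. *SPP1*, the secreted phosphoprotein osteopontin, fell from 6.51, 8.28 and 7.70 CPM in Control to 1.35, 0.892 and 0.603 in CTCFL-KD (log2 fold change -3.03 ± 0.52 SE). *LYPD1* was the other DEG of this list in CTCFL-OE, which made 2 of 27, against 2.07% of all genes called there. It had 23.0, 22.9 and 22.8 CPM in Control and 5.61, 5.33 and 6.94 in CTCFL-OE (log2 fold change -1.94 ± 0.28 SE, adjusted p = 0.0113). In CTCFL-KD against CTCFL-OE, 12 were higher and 3 lower, against 17.0% of all genes called. The neural adhesion molecule *L1CAM* had 409, 626 and 880 CPM in CTCFL-OE, against 83.2, 158 and 148 in CTCFL-KD (log2 fold change -2.30 ± 0.32 SE), and the keratin *KRT18* 785, 582 and 473 and then 3963, 1669 and 1509 CPM (adjusted p = 0.00301).

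Of 17 other mucin genes 6 were tested, and in CTCFL-KD 3 were DEGs higher and 1 lower, against 23.2% of all genes called. *MUC15*, a membrane mucin, had 1.28 to 1.52 CPM in Control, 4.93, 3.71 and 3.81 in CTCFL-OE, against 25.1, 35.3 and 29.7 in CTCFL-KD, with log2 fold changes of 1.54 ± 0.22 SE in CTCFL-OE (adjusted p = 0.0113) and 4.39 ± 0.23 SE in CTCFL-KD (adjusted p = 1.05e-06). *MUC20* had 10.9, 11.5 and 10.7 CPM in Control and 135, 101 and 83.4 in CTCFL-KD (log2 fold change 3.27 ± 0.22 SE). *MUC7*, a salivary mucin, had 0, 0 and 1 counts in Control and 13, 43 and 52 in CTCFL-KD. *MUC3A* was the mucin that was lower, named here after its value was seen (log2 fold change -1.32).

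Of 18 Mullerian development genes 14 were tested, with 0 DEGs in CTCFL-OE by edgeR (2.07% of all genes called) and 0 by DESeq2 on all 9 libraries. At an unadjusted p under 0.05, 2 passed edgeR's test there, and 1 was a DEG without CTCFL-KD replicate 1. In CTCFL-KD 2 were higher and 4 lower, against 23.2% of all genes called, and the median log2 fold change was -0.65 over the list and 0.08 over all genes. *FOXJ1*, the master factor of motile cilia in the tubal epithelium, had 6, 5 and 8 counts in Control, 7, 4 and 4 in CTCFL-OE, against 115, 112 and 154 in CTCFL-KD (log2 fold change 4.82 ± 0.32 SE, adjusted p = 4.22e-06). *WNT4*, a signal for duct formation, had 14, 8 and 10 counts in Control and 148, 151 and 139 in CTCFL-KD (log2 fold change 4.30 ± 0.36 SE). *HOXA13*, which patterns the lower end of the duct, had 26, 33 and 18 counts in Control and 0, 1 and 1 in CTCFL-KD. Of the 6 paralogues of the marker transcription factors (*PAX2*, *PAX5*, *SOX7*, *SOX18*, *EMX1*, *ESR2*), 1 was tested, *ESR2* (log2 fold change 0.43 ± 0.51 SE in CTCFL-KD, adjusted p = 0.530). It was no DEG by edgeR in any of the 3 comparisons, with 0 at an unadjusted p under 0.05. DESeq2 on all 9 libraries, run without the low-count filter, called 1 of the 6 in CTCFL-KD, which may be a gene that the filter removed.

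Although *ESR1* was near the limit of detection, 19 of 23 oestrogen receptor targets and cofactors were tested. In CTCFL-KD 6 were DEGs higher and 3 lower, against 23.2% of all genes called, and the median log2 fold change was 0.30, against 0.08 over all genes. *FOXA1*, a pioneer factor for oestrogen receptor binding, had 0.651, 0.583 and 0.557 CPM in Control and 4.96, 8.68 and 9.04 in CTCFL-KD (log2 fold change 3.66 ± 0.31 SE). *CXCL12*, a chemokine, had 1, 0 and 0 counts in Control and 22, 45 and 41 in CTCFL-KD, and the growth inhibitor *RERG* had 1, 0 and 0 and then 8, 26 and 50 counts. In CTCFL-OE 1 gene of the 19 was a DEG, against 2.07% of all genes called there. It was the carbonic anhydrase *CA12* (log2 fold change 1.20 ± 0.30 SE, adjusted p = 0.0868).

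Around *FOLR1*, 16 of 19 genes of folate uptake and use were tested. In CTCFL-OE 0 were DEGs by edgeR (2.07% of all genes called) and by DESeq2, and 1 had an unadjusted p under 0.05. Higher in CTCFL-KD were 2 of them, and 1 was lower, so that 18.8% were DEGs against 23.2% of all genes. The reduced folate carrier *SLC19A1* had 37.7, 33.1 and 38.8 CPM in Control and 137, 82.6 and 85.4 in CTCFL-KD (log2 fold change 1.48 ± 0.27 SE, adjusted p = 0.00185). *GGH*, which trims folate polyglutamates, had a log2 fold change of 1.74 ± 0.26 SE, and the methionine synthase reductase *MTRR* one of -1.21 ± 0.29 SE. Of 15 genes with the WAP domain of WFDC2, 4 were tested (23.2% of all genes were called), with 1 DEG higher in CTCFL-KD (*ANOS1*, log2 fold change 1.54 ± 0.31 SE) and 1 lower (the elastase inhibitor *PI3*, -2.56 ± 0.43 SE).

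**Figure D5:**
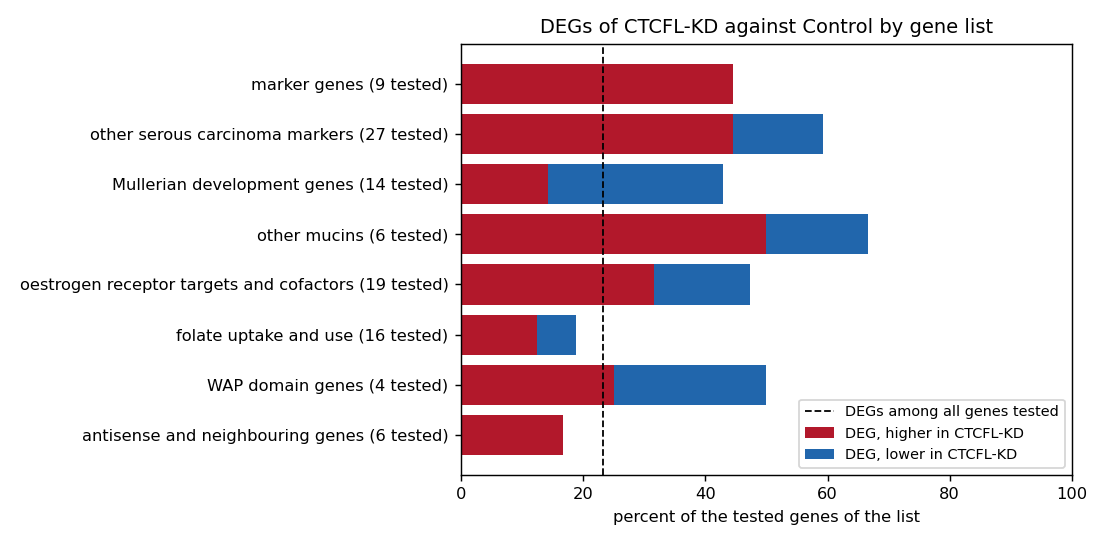
Percent of the tested genes of each list that were DEGs higher (red) or lower (blue) in CTCFL-KD against Control, with a dashed line at the 23.2% of all 17794 genes tested. The bars stand on between 4 and 27 genes, with 4 of 9 markers higher and none lower, and 2 higher and 4 lower of 14 Mullerian development genes.

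Genes that overlap or neighbour a marker were followed as well, since the strand setting of the counting is not given in the sources used here and reads of overlapping opposite strands may have been shared. *WT1-AS* overlaps *WT1* by 47 bases, *PAX8-AS1* overlaps *PAX8* by 60585 and *EMX2OS* overlaps *EMX2* by 2624. *WT1-AS* had 10.5, 12.4 and 11.7 CPM in Control, 9.44, 11.7 and 9.71 in CTCFL-OE, against 8.66, 7.85 and 8.87 in CTCFL-KD, where its log2 fold change was -0.45 ± 0.17 SE (adjusted p = 0.0586). *PAX8-AS1* had 26.6, 29.8 and 29.5 CPM in Control and 14.9, 65.2 and 66.7 in CTCFL-KD, and *EMX2OS* 126, 129 and 129 and then 123, 169 and 165. Both overlapped with Control and did not pass the test (adjusted p = 0.188 and 0.271). Beside *MUC1*, *THBS3* was a DEG in CTCFL-KD (log2 fold change 1.03 ± 0.24 SE, adjusted p = 0.00702), which was 1 of 6 genes, against 23.2% of all genes tested. With the length and GC trend removed, or with DESeq2 on all 9 libraries, 0 of the 6 were DEGs there. In CTCFL-OE none of the 6 was called by edgeR (2.07% of all genes called) or DESeq2, and 3 had an unadjusted p under 0.05. The log2 fold change of *TRIM46* in CTCFL-KD was 0.19 ± 0.30 SE. *MSLNL*, a relative of *MSLN* on the same chromosome, had a log2 fold change of -0.39 ± 0.37 SE in CTCFL-KD and was lower in CTCFL-KD than in CTCFL-OE (-1.24 ± 0.37 SE, adjusted p = 0.0304), although the libraries of these groups overlapped.

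The genes most like each marker over the 9 libraries were sought among 12779 protein-coding genes by Pearson's r of log2 CPM, which is a description of libraries that share depth, group and length trend. *MUC16* was most like *UBE2O* (r = 0.994) and *DDX31* (0.992), and *FOLR1* most like *TSPAN4* (0.993) and *ACBD4* (0.993). *MSLN* was most like *MFSD10* (0.996) and *WFDC2* most like *COX4I1* (0.990). *WT1* was most like *MAP2K4* (0.989), *PAX8* like *HDHD5* (0.993) and *MUC1* like *SRC* (0.978). *SOX17* was most like *RNPEPL1* (0.984) and *EMX2* like *MYL9* (0.986). No marker was among the genes named for another. With so few of the 12779 genes named per marker, this cannot tell whether the markers moved together.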

How the data were processed

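OVCAR3 libraries of Control, CTCFL-OE and CTCFL-KD (3 each) were grouped by their labels. The authors trimmed reads with Trimmomatic, used STAR for alignment to GRCh38, and featureCounts for counting reads per gene. The labels' processing notes also name kallisto. The deposited values are raw counts per gene, not normalized. The annotation release, strand setting and treatment of multi-mapping reads are not given in the sources used here. Each of the 9 library files equalled its matrix column, and no pair of replicates agreed within sampling noise (chi-square per degree of freedom 3.21 or more).

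Symbols, positions and exonic lengths came from GENCODE 44 (60419 of 60660 identifiers). Counts were filtered with filterByExpr, scaled by TMM and fitted with edgeR 4.0.16 (R 4.3.3, glmQLFit with robust estimation, condition only, all 9 libraries), tested by the quasi-likelihood test with Benjamini-Hochberg adjustment. The scripts were tested on simulated data. SE was taken as log2 fold change over root F (absolute value), and 95% intervals are normal ones from it. DESeq2 1.42.0, other scalings, filters and a spline correction for length and GC were alternatives. Limits from counts cover counting error only, since reads carry no molecular identifiers.

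Named genes were the markers, the antisense and neighbouring genes and, per related list and comparison, at most the 3 DEGs of greatest absolute log2 fold change whose libraries did not overlap. Genes of the cell type lists were named after their values were seen. The 2 most similar genes per marker were ranked among protein-coding genes of at least 1 CPM on average. Members and lists were chosen with earlier results of these data known. Same-numbered Control and CTCFL-KD libraries deviated together (correlations 0.280, 0.161 and 0.203 over 14453 genes, or 0.14, 0.0995 and 0.145 with the length and GC trend removed). The knockdown RNA came from earlier experiments, and these correlations do not establish a pairing. The main test held the condition only, and the replicate number was a block in alternative fits.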

Additional observations from a re-analysis of the deposited data

How the results depend on the processing

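Of the CTCFL-KD calls, *MUC16*, *MSLN* and *FOLR1* were DEGs in all 21 alternative settings and *WFDC2* in 16, so that the number of markers called stayed between 3 and 4, or 6 by the adjusted p alone. In CTCFL-OE the number was 0 and became 1 (*FOLR1*) with DESeq2 on all 9 libraries or on the 2 groups compared, with edgeR on the 2 groups compared, without a low-count filter, with the length and GC trend removed, and with that trend removed and the replicate block. Leaving out 1 library gave 0 to 1. Without CTCFL-KD replicate 1, *WT1*, *MUC1* and *MSLN* also passed the adjusted p in CTCFL-OE, under the fold threshold. In CTCFL-KD against CTCFL-OE the number was 4, fell to 2 with the replicate block and the length and GC trend removed, and ranged from 1 (without CTCFL-OE replicate 1 or CTCFL-KD replicate 1) to 5 when 1 library was left out. The cause was not tested.

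Signs changed only for log2 fold changes near 0 that did not pass the test. In CTCFL-OE, *MUC16* was -0.047 with the length and GC trend removed and -0.056 with the block added, and ranged from -0.049 to 0.45 when 1 library was left out. *PAX8* was 0.0079 with upper-quartile scaling, and *WFDC2* ranged from -0.14 to 0.26 over the fits without 1 library. *EMX2* in CTCFL-OE was 0.0025 with DESeq2 and 0.033 with edgeR on the 2 groups compared, 0.0042 with RLE scaling, 0.046 with upper-quartile scaling, 0.0018 without mitochondrial genes in the scaling and 0.013 with at least 10 counts in every library, and ranged from -0.14 to 0.067 when 1 library was left out. *SOX17* in CTCFL-KD was -0.17 with the trend removed, also with the block, and ranged from -0.087 to 0.31 when 1 library was left out. *WT1* in CTCFL-KD against CTCFL-OE was -0.00021 with DESeq2 on the 2 groups, -0.029 without a low-count filter, -0.097 with the trend removed and -0.073 with the block added, and ranged from -0.095 to 0.22 over the fits without 1 library.

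With the replicate block the number of markers called was 0 in CTCFL-OE, 4 in CTCFL-KD and 3 in CTCFL-KD against CTCFL-OE, where *MSLN* was 0.98 (adjusted p = 0.0830, edgeR). Beside this and *EMX2* in CTCFL-KD the block changed no call of a marker. For the CTCFL-OE libraries the same-number correlations as measured were -0.0329, 0.198 and -0.0459 with Control and -0.0061, 0.0598 and 0.0109 with CTCFL-KD. In each, 1 of 3 correlated best with its own number. With the length and GC trend removed, the correlations with CTCFL-KD were 0.0906, 0.143 and 0.0552 and all 3 correlated best with their own number. Depth limits *ESR1* alone among the markers.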
